A study of Mus musculus with 30 samples.

Results

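The genes described here carry the names of nuclear subunits of the 5 oxidative phosphorylation complexes of the mitochondrion, read in the abdominal aorta of mice infused with angiotensin II. Members were chosen by gene symbol, so that not every member need be a subunit of the complex it is counted with. The rule itself uses no measured value, but it was set with earlier results of these data known. It took protein-coding genes named Ndufa, Ndufb, Ndufc, Ndufs or Ndufv with a number or letter for complex I, Sdha to Sdhd for complex II, Uqcr for complex III, the Cox4 to Cox8 families for complex IV and Atp5 for complex V. In the annotation 86 gene records met the rule, and 82 were measured and tested, among 13223 genes tested in all. They were 37 genes of complex I, 4 of complex II, 8 of complex III, 16 of complex IV and 17 of complex V. The other 4 were Ndufa13, whose transcript was listed for Control and AngII libraries only, and Cox7b2, Cox8c and a second record named Atp5o, which had no listed transcript.

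All mice were wild-type C57BL/6, their age is not given in the labels, and each of 6 groups has 5 libraries of total RNA taken after 28 days. The compound groups received angiotensin II at 500 ng/kg/min together with ethoxysanguinarine, a plant alkaloid, at 5 mg/kg/day (AngII+ETH), baicalin, a flavonoid glucuronide, at 5 mg/kg/day (AngII+BAI), gastrodin, a phenolic glucoside, at 5 mg/kg/day (AngII+GAS), or valsartan, a blocker of the type 1 angiotensin receptor, at 10.4 mg/kg/day (AngII+VAL). The AngII group received the infusion alone, and the Control group saline. The series title speaks of compounds that lower blood pressure raised by angiotensin II, a peptide hormone that constricts arteries.

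Complexes I to IV pass electrons from NADH and succinate to oxygen and, except for complex II, pump protons across the inner mitochondrial membrane, and complex V uses that gradient to make ATP. Most subunits are encoded in the nucleus and assembled with a few that the mitochondrial genome encodes. Arterial smooth muscle holds few mitochondria compared with heart, skeletal muscle and brown fat, and fat with brown features can surround the aorta. Several complex IV subunits exist as alternative genes, some of which are used mainly in muscle and brown fat.

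Values are FPKM, a fragment count scaled by transcript length and library depth, summed over the annotated transcripts of a gene that were listed for all 30 libraries. The reads behind them, recovered from the lowest values, were 69600000 to 80650000 per library. Smooth muscle genes were abundant in every library, with a mean log2(FPKM + 1) over 8 genes between 8.04 and 9.54 outside AngII+BAI 3 (6.41) and AngII+BAI 5 (7.39). Other tissues were present as well. The brown fat gene Ucp1 was at 275 to 3834 FPKM, skeletal muscle genes had a mean log2 level above 4 in 10 libraries, which were Control 1 and 2, AngII+ETH 1, AngII+BAI 3, AngII+GAS 3 and all 5 of AngII+VAL, and the heart genes Myl7 and Nppa were at 387 and 61.4 FPKM in AngII 2 and at most 0.586 and 0.648 FPKM in any other library. In whole tissue, fewer cells of a type and less RNA per cell cannot be told apart.

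Subunit genes were highly expressed. The median over members of the mean FPKM was 139.9, against 5.98 for all genes tested. By complex this median was 106 FPKM for complex I, 222 for complex II, 231 for complex III, 258 for complex IV and 175 for complex V, all values being per kilobase of transcript. Atp5b, the catalytic beta subunit of ATP synthase (ENSMUSG00000025393, GRCm38 chromosome 10, 128083273 to 128090391, plus strand), had the highest mean of the 82, 993 FPKM, ahead of Cox6a1 (820 FPKM) and Cox8a (664 FPKM), both small subunits of cytochrome c oxidase. At the low end stood Atp5s (1.54 FPKM), Cox4i2 (2.42 FPKM), the complex IV subunit gene known for its response to oxygen, and Cox6b2 (3.48 FPKM), known as a testis form. Atp5s, named Dmac2l in RefSeq, is counted with complex V by its symbol. The depth was ample for most members: the median library had about 126 reads for Cox4i2, the fewest of any member.

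Members also differed in how much they varied from library to library. The SD of log2(FPKM + 1) over the 30 libraries had a median of 0.46 for the 82 genes and 0.41 for all genes tested. It was smallest for Cox7a2l (0.21), counted with complex IV by its symbol, and for Atp5g2 (0.23), 1 of 3 genes for the same membrane ring protein of ATP synthase. It was largest for Cox6a2 (2.40), the heart and skeletal muscle form of a complex IV subunit, and also large for Atp5g1 (1.10), Uqcrfs1 (1.09), Ndufa12 (1.01), Cox7a1 (0.93) and Cox8b (0.76). Uqcrfs1, the Rieske iron-sulfur protein of complex III, ran between 38.7 FPKM in AngII+ETH 4 and 465 FPKM in AngII+GAS 1 and every group held libraries at 213 FPKM or more beside libraries at 121 FPKM or less. It was measured through 1 transcript.

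Sequences upstream of the members were taken from RefSeq (GRCm38.p6) as windows of 300 bases, 250 before and 50 after the start of the gene, and matched 67 of the 82 genes. A member with more than 1 window was counted if any of them held the letters. The palindromic letters bound by NRF1, a known activator of respiratory chain genes, were searched on both strands as GCGCA, any 1 base and GCGC. They were found for 17 of the 67 genes (25.4%), against 1402 of 27025 over all genes (5.19%). The ETS letters CCGGAAG, the core bound by the factor GABP, searched on both strands, were found for 16 of the 67 (23.9%), against 2683 over all genes (9.93%). By complex, NRF1 letters were found for 7 of 32 genes of complex I, 2 of 3 of complex II, 1 of 5 of complex III, 1 of 12 of complex IV and 6 of 15 of complex V. ETS letters were found for 4 of 32, 2 of 3, 2 of 5, 3 of 12 and 5 of 15 in the same order. The ETS share of complex I, 12.5%, was near the 9.93% over all genes. A match is a description of the sequence and does not show that a factor binds there. In complex IV neither motif was found for Cox7a1 and Cox8b, forms used in muscle and brown fat. Neither was found for Cox5a, Cox5b, Cox7a2, Cox7b and Cox7c, so the lack is not particular to such forms. Cox6a1 had both motifs, and Cox6b1 and Cox8a had ETS letters only. The following 4 windows are examples that cover 3 of the complexes, with Cox6a1 and Cox7a1 for complex IV. They are Uqcrc1 (chr9:108936398-108936697, plus strand), Sdhd (chr9:50603800-50604099, minus strand), Cox6a1 (chr5:115348909-115349208, minus strand) and Cox7a1 (chr7:30183921-30184220, plus strand), written 5′ to 3′ on the strand of the gene, with NRF1 and ETS letters in capitals.
Uqcrc1: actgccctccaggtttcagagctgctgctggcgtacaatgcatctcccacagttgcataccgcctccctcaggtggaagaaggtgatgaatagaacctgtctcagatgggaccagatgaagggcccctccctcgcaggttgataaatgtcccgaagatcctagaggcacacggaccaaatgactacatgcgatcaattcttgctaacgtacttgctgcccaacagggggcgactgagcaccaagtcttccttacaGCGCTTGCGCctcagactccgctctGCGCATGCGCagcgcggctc
Sdhd: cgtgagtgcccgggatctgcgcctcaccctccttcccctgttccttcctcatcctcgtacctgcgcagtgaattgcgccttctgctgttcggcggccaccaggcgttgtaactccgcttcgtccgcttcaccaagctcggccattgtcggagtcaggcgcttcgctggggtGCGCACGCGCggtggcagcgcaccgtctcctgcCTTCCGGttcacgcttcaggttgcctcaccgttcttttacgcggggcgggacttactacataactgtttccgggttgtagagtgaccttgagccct
Cox6a1: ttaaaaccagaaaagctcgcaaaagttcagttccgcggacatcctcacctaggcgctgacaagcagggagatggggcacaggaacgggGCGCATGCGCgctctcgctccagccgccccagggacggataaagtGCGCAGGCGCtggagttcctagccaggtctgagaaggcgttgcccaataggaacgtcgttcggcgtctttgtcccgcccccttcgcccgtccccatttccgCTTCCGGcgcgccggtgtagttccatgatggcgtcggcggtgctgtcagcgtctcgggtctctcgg
Cox7a1: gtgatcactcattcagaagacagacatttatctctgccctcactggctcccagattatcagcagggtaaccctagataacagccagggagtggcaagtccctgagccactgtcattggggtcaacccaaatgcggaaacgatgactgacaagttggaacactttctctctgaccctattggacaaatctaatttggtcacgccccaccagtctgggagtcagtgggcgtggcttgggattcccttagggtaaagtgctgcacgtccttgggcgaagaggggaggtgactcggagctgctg

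The first comparison, AngII against Control, addresses what the infusion changed. The subunit genes lay at lower levels in AngII than in Control in nearly every case, but no single member passed the test. The log2 fold change was below 0 for 76 of 82 members, against 33.4% of all 13223 genes. Its median was −0.37 over the members and 0.11 over all genes. Members moved together by library: those below their median over all libraries numbered 75, 39, 76, 53 and 72 in AngII 1 to 5. In Control 1 to 5 they numbered 71, 4, 10, 6 and 27. Counts of members below 0, here and in the later comparisons, are therefore not counts of independent genes. The adjusted p of the members, from limma with Benjamini-Hochberg adjustment over all genes tested, ran from 0.22 to 0.996, and 0 of 82 members and 0% of all genes were called at 0.05. Unadjusted, 4 members had a p under 0.05 with a lower level (1.69% of all genes) and 1 with a higher level (9.51% of all genes).

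All 5 complexes shared this direction, but their genes moved together by library, so the complexes are not independent of each other. The mean log2(FPKM + 1) of the complex I genes was 6.15 ± 0.23 in AngII and 6.55 ± 0.19 in Control (SD, n = 5 each). For complex II it was 7.09 ± 0.36 in AngII and 7.63 ± 0.29 in Control, and for complex III 7.55 ± 0.42 in AngII and 7.92 ± 0.34 in Control. For complex IV it was 6.79 ± 0.35 in AngII and 7.15 ± 0.25 in Control, and for complex V 6.77 ± 0.20 in AngII and 7.02 ± 0.19 in Control. The differences were about as large as the SD between libraries pooled over all 6 groups, 0.34 to 0.55. For each complex this pooled SD was wider than the SD within AngII or Control. The ranges of AngII and Control overlapped for each complex. The median log2 fold change of the genes of a complex was largest in size for complex II (−0.53), and was −0.37 for complex I, −0.38 for complex III, −0.38 for complex IV and −0.32 for complex V.

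**Figure D1:**
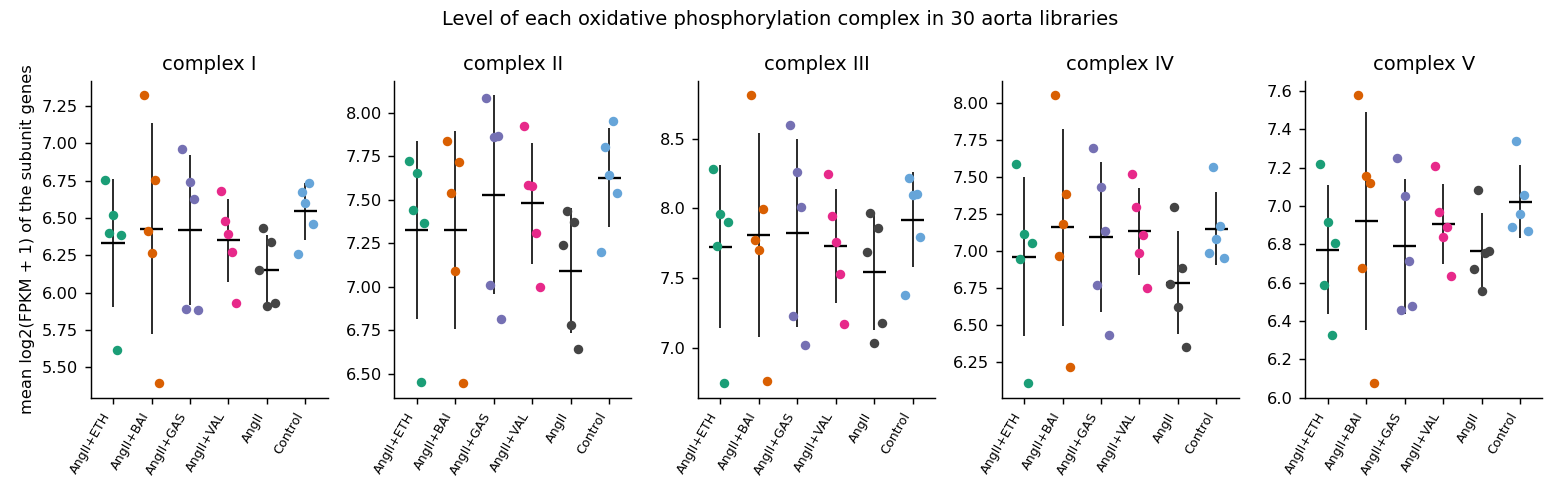
Mean log2(FPKM + 1) of the subunit genes of each complex (y axis, its own scale in each panel) in the 30 aorta libraries by group (x axis). Points are libraries, horizontal lines group means and vertical lines 1 SD (n = 5). AngII has the lowest group mean of complexes I to V and Control the highest of complexes I, II, III and V, with overlapping points, and AngII+BAI spans the widest range in complex I, 5.39 to 7.32.

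In complex I the genes given here for the NADH-oxidising head and the iron-sulfur chain had similar values, except Ndufs8. Ndufs1, the largest iron-sulfur subunit (ENSMUSG00000025968, chromosome 1, 63143596 to 63176833, minus strand), was at 87.3, 104, 60.5, 107 and 61.6 FPKM in AngII 1 to 5, against 101, 138, 122, 149 and 103 FPKM in Control 1 to 5. AngII 2 and 4 lay within the Control range and the other 3 below it, and the log2 fold change was −0.56 (SE 0.28, limma adjusted p = 0.45). Ndufs8, an iron-sulfur subunit next to the quinone site, had −0.07 (SE 0.40, limma adjusted p = 0.97). Ndufv1, the subunit that binds NADH and flavin, had −0.51 (SE 0.33), Ndufv2 −0.48 (SE 0.26), Ndufs3 −0.55 (SE 0.28) and Ndufs7 −0.47 (SE 0.29). Of the 37 genes of complex I only Ndufa4l2, counted there by its symbol, was above 0.

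Ndufa12, an accessory subunit of complex I (ENSMUSG00000020022, chromosome 10, 94198720 to 94221443, plus strand), had the smallest p of the members. It was at 4.05, 5.87, 4.57, 3.01 and 9.74 FPKM in AngII, against 37.5, 14.2, 23.1, 37.95 and 5.50 FPKM in Control. Control 1 to 4 were above all AngII libraries and Control 5 within their range, and the log2 fold change was −1.75 (SE 0.53, limma adjusted p = 0.22). The transcript ENSMUST00000020209 carried this, with 1.68 to 2.59 FPKM in AngII, against 37.2, 11.5, 21.8, 36.5 and 1.89 FPKM in Control 1 to 5. In the compound groups it was at 1.04 to 5.33 FPKM except in AngII+BAI 4 (22.4 FPKM) and AngII+VAL 2 (36.6 FPKM). The level of a transcript rests on the way reads were divided between the transcripts of a gene.

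In complex II, succinate dehydrogenase, all 4 genes lay lower in AngII. Sdhc, a membrane anchor (ENSMUSG00000058076, chromosome 1, 171127165 to 171150603, minus strand), was at 56.8, 60.9, 41.0, 54.3 and 42.6 FPKM in AngII, against 58.4, 80.2, 69.5, 88.8 and 69.8 FPKM in Control. Only AngII 2 exceeded the lowest Control library, and the log2 fold change was −0.52 (SE 0.21, limma adjusted p = 0.34). Sdhb, the iron-sulfur subunit, had −0.64 (SE 0.33), Sdha, the flavoprotein that oxidises succinate, −0.54 (SE 0.29), and Sdhd, the other anchor, −0.44 (SE 0.32), with limma adjusted p of 0.47, 0.49 and 0.64.

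In complex III, Uqcrc1, a core subunit (ENSMUSG00000025651, chromosome 9, 108936633 to 108949623, plus strand), was at 253, 305, 172, 282 and 128 FPKM in AngII, against 232, 385, 392, 444 and 345 FPKM in Control. Control 1 was the 1 Control library within the AngII range, and the log2 fold change was −0.69 (SE 0.33, limma adjusted p = 0.44). Uqcrc2, its partner, had −0.56 (SE 0.29, limma adjusted p = 0.48), while Uqcrfs1 had 0.10 with an SE of 0.72 (limma adjusted p = 0.98).

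In complex IV, Cox5b, a nuclear subunit that lies on the matrix side (ENSMUSG00000061518, chromosome 1, 36691449 to 36693681, plus strand), was at 187, 204, 136, 200 and 167 FPKM in AngII, against 243, 289, 271, 269 and 231 FPKM in Control. It was the 1 member whose ranges in AngII and Control did not overlap, which held for 0.537% of all genes in this direction and 3.01% in the other. Its log2 fold change was −0.55 (SE 0.29, limma adjusted p = 0.49). Cox5a had −0.63 (SE 0.35, limma adjusted p = 0.51) and Cox4i1, the general form of the largest nuclear subunit, −0.27 (SE 0.30, limma adjusted p = 0.76). In the opposite direction, Cox6b2 (ENSMUSG00000051811, chromosome 7, 4751792 to 4753094, minus strand) was at 4.32, 3.46, 5.62, 4.27 and 5.97 FPKM in AngII, against 2.55, 2.10, 2.27, 4.72 and 4.04 FPKM in Control, a log2 fold change of 0.49 (SE 0.23, limma adjusted p = 0.42).

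In complex V, Atp5b was at 864, 982, 603, 952 and 587 FPKM in AngII, against 809, 1285, 1179, 1333 and 1014 FPKM in Control. Control 1 alone fell within the AngII range, and the log2 fold change was −0.51 (SE 0.28, limma adjusted p = 0.52). Its partner in the catalytic head, Atp5a1, had −0.50 (SE 0.26), the central stalk genes Atp5d and Atp5c1 −0.51 (SE 0.29) and −0.15 (SE 0.34), with limma adjusted p of 0.48, 0.54 and 0.91. Atp5g1 and Atp5g3, which encode the same mature ring protein from different genes, were the 2 members of complex V above 0, at 0.10 (SE 0.60) and 0.50 (SE 0.41). Reads of such close copies can be divided between genes, so their single values are uncertain.

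**Figure D2:**
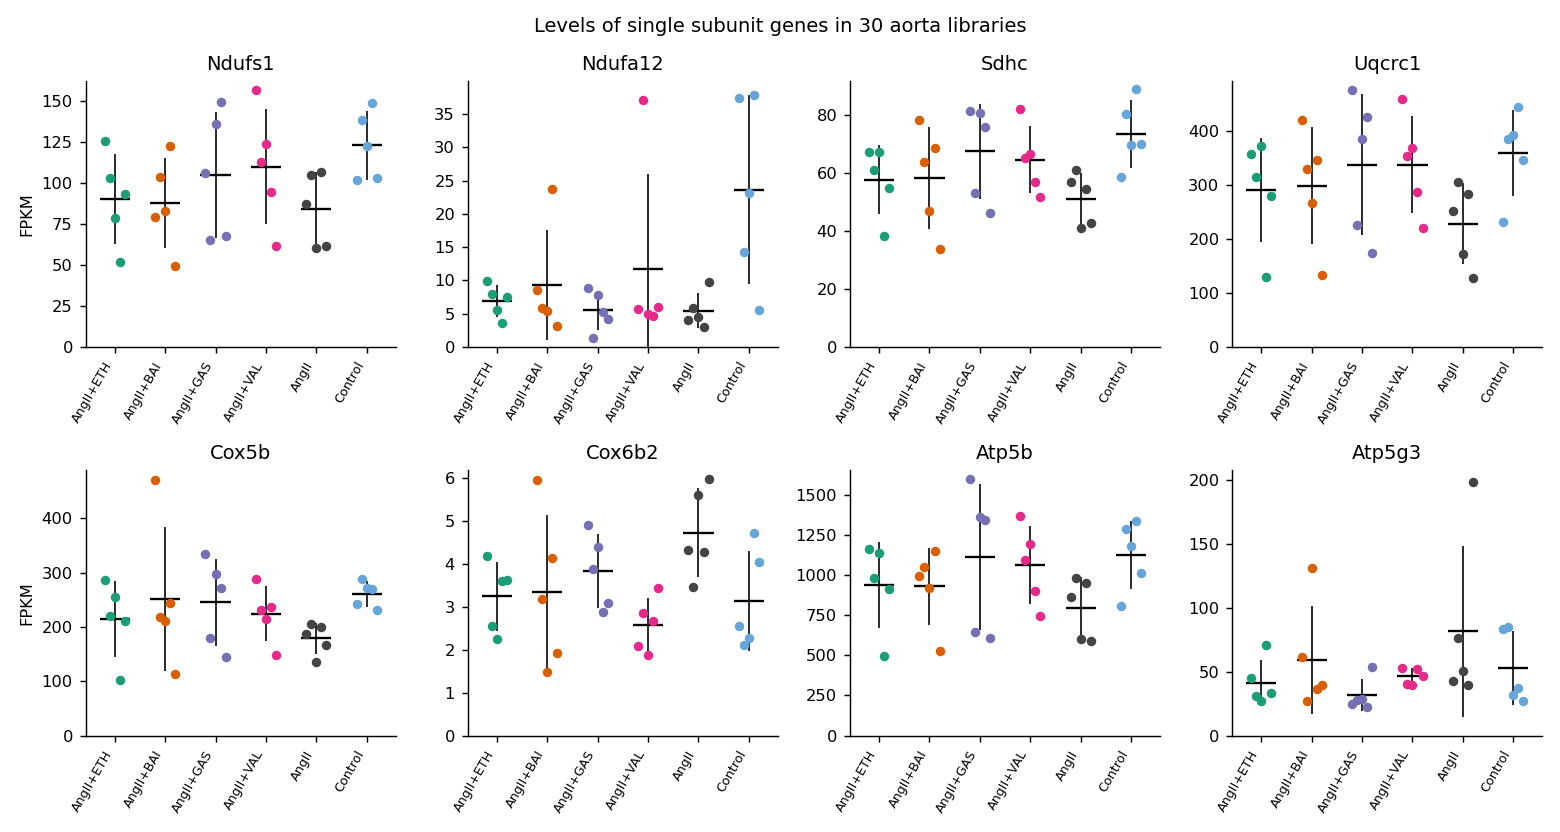
FPKM (y axis, from 0) of 8 subunit genes in each of 30 aorta libraries by group (x axis), with points for libraries, horizontal lines for group means and vertical lines for 1 SD (n = 5). Cox5b is at 136 to 204 FPKM in AngII and 231 to 289 FPKM in Control, Ndufa12 is at 14.2 FPKM or more only in AngII+BAI 4, AngII+VAL 2 and 4 Control libraries, and Cox6b2 is at 1.87 to 3.43 FPKM in AngII+VAL and 3.46 to 5.97 FPKM in AngII.

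Genes around the complexes were read from 4 lists. Enzymes of the tricarboxylic acid cycle, which feeds the chain, had a median log2 fold change of −0.58 in AngII against Control, with 12 of 13 below 0 and 0 called. Citrate synthase, Cs, had −0.53 (SE 0.27, limma adjusted p = 0.48). The subunits encoded in the mitochondrial genome had a median of −0.57, with 8 of 9 tested below 0. Assembly factors, which are needed to build the complexes but are not part of them, had a smaller median of −0.13, with 35 of 47 below 0. Regulators of mitochondrial biogenesis had −0.13, with 9 of 14 below 0, and ran from −1.33 for Tfb2m to 0.27 for Gabpa, a gene of the factor GABP. Between these ends, the coactivator Ppargc1a had −0.77 (SE 0.41) and the receptor Esrra −0.47 (SE 0.32). Tfam, which packs and transcribes mitochondrial DNA, had −0.17 (SE 0.13), and Nrf1 0.18 (SE 0.27). No gene of the 4 lists was called in this comparison.

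Markers of brown fat moved with the subunit genes. All 11 measured of 12 brown adipocyte genes were below 0 in AngII against Control, with a median log2 fold change of −0.73 and none called, and Ucp1 at −0.63 (SE 0.55). Their mean log2 level ranged from 4.08 to 5.72 in AngII and from 5.20 to 6.32 in Control, and no gene of the list was at 0 throughout a group. The 5 libraries with the lowest brown adipocyte level, AngII+ETH 4, AngII+GAS 5, AngII+BAI 5 and AngII 3 and 5, were also the 5 with the lowest mean over the 82 members. The same held less closely at the top: AngII+GAS 1 had the highest brown adipocyte level (6.65) and the second highest mean of the members (7.38), while AngII+BAI 1 had the highest mean of the members (7.69) with a brown adipocyte level of 5.73. White and general adipocyte genes had a median of −0.25, with 6 of 9 below 0. The part of fat in the tissue piece in these differences was not tested. Nerve genes lay the other way: 15 of 15 sympathetic neuron genes were above 0 in AngII against Control, with a median of 2.07, and their mean log2 level ranged from 0.72 to 5.75 in AngII and from 0.66 to 2.42 in Control. All 7 Schwann cell genes were above 0 as well (median 1.24, mean log2 level 2.04 to 4.88 in AngII and 2.04 to 2.54 in Control), as were 6 of 6 fibroblast genes (median 0.62) and 5 of 5 macrophage genes (median 0.44). No gene of these lists was called, none of the nerve genes was at 0 throughout a group, and their part in the result was not tested. Skeletal muscle genes were on the lower side, with 12 of 12 measured of 15 below 0 and a median of −2.15; without the 10 libraries rich in them, 75 of 82 members were below 0 in AngII against Control, with a median of −0.43.

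**Figure D3:**
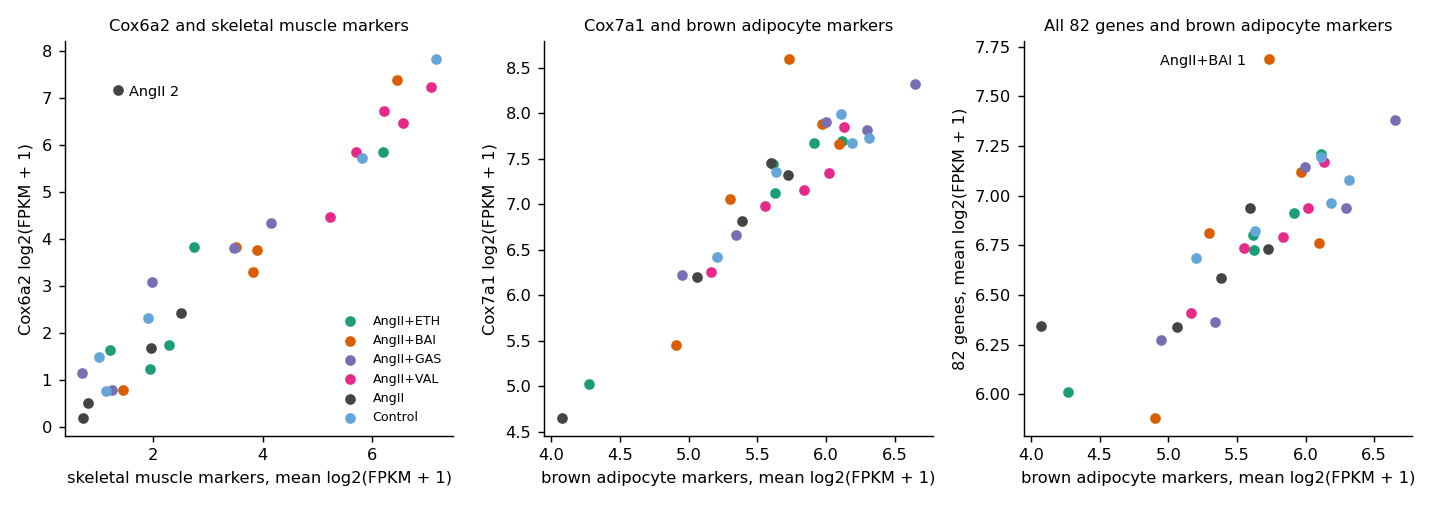
Log2(FPKM + 1) of Cox6a2 against the mean log2(FPKM + 1) of skeletal muscle markers (left), of Cox7a1 against brown adipocyte markers (middle) and the mean over all 82 genes against brown adipocyte markers (right), with 1 point per library in the color of its group. The AngII 2 library, where heart genes were high, holds 143 FPKM of Cox6a2 at a low skeletal muscle level, and AngII+BAI 1 has the highest mean of the 82 genes, 7.69.

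The 4 remaining comparisons ask what each compound changed on top of the infusion. They share the 5 AngII libraries, so the values of the 4 comparisons are given side by side and a common direction is not independent from one to the next. The same 5 libraries are the tested group of AngII against Control. A low level in them alone would give opposite signs there and here, so the opposite direction is not independent either. In each, most members lay above AngII, opposite to the direction of AngII against Control, and none was called: the log2 fold change was below 0 for 11 of 82 members in AngII+ETH (69% of all genes), 9 in AngII+BAI (51.3% of all genes), 12 in AngII+GAS (73.7% of all genes) and 16 in AngII+VAL (69.4% of all genes). The medians over members were 0.19 in AngII+ETH, 0.30 in AngII+BAI, 0.29 in AngII+GAS and 0.21 in AngII+VAL. Over all genes the medians were −0.09 in AngII+ETH, −0.01 in AngII+BAI, −0.17 in AngII+GAS and −0.12 in AngII+VAL. Called genes among all 13223 made up 0% in AngII+ETH, 0.333% in AngII+BAI, 0.0151% in AngII+GAS and 0% in AngII+VAL. At an unadjusted p under 0.05, the members with a lower level were 0 in AngII+ETH (2.97% of all genes), 1 in AngII+BAI (9.29%), 1 in AngII+GAS (12.4%) and 1 in AngII+VAL (9.02%). Those with a higher level were 0 in AngII+ETH (0.439%), 0 in AngII+BAI (5.35%), 0 in AngII+GAS (1.23%) and 1 in AngII+VAL (1.78%). Of the 21 core subunits, 2 were below 0 in AngII+ETH, 2 in AngII+BAI, 1 in AngII+GAS and 1 in AngII+VAL. Their log2 fold changes ran from −0.32 for Uqcrfs1 (SE 0.72) to 0.52 for Atp5d (SE 0.29) in AngII+ETH and from −0.13 for Atp5c1 (SE 0.34) to 0.56 for Cox5a (SE 0.35) in AngII+BAI. In AngII+GAS they ran from −0.33 for Uqcrfs1 (SE 0.72) to 0.53 for Uqcrc1 (SE 0.33), and in AngII+VAL from −0.29 for Uqcrfs1 (SE 0.72) to 0.79 for Ndufs8 (SE 0.40). Non-overlapping ranges were found for no member in AngII+ETH (0.431% of all genes lower, 0.0681% higher), AngII+BAI (1.4% lower, 0.303% higher) and AngII+GAS (2.21% lower, 0.106% higher).

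Markers of other cell types moved in these comparisons too, again against the shared AngII libraries and with no gene of the lists named here called. Of 11 brown adipocyte genes, 8 were above 0 in AngII+ETH, 10 in AngII+BAI, 11 in AngII+GAS and 10 in AngII+VAL, with medians of 0.50 in AngII+ETH, 0.37 in AngII+BAI, 0.64 in AngII+GAS and 0.46 in AngII+VAL. Their mean log2 level ranged from 4.27 to 6.12 in AngII+ETH, 4.90 to 6.10 in AngII+BAI, 4.95 to 6.65 in AngII+GAS and 5.16 to 6.13 in AngII+VAL, against 4.08 to 5.72 in AngII. Of 15 sympathetic neuron genes, 13 were below 0 in AngII+ETH and 15 in each of AngII+BAI, AngII+GAS and AngII+VAL, with medians of −0.54 in AngII+ETH, −1.42 in AngII+BAI, −2.12 in AngII+GAS and −1.83 in AngII+VAL. Their mean log2 level was 1.56 to 4.88 in AngII+ETH, 0.65 to 3.38 in AngII+BAI, 0.52 to 2.76 in AngII+GAS and 0.44 to 4.15 in AngII+VAL, against 0.72 to 5.75 in AngII. The 7 Schwann cell genes were below 0 in all 4 groups, with medians of −0.63 in AngII+ETH, −1.15 in AngII+BAI, −1.28 in AngII+GAS and −1.02 in AngII+VAL. All 12 skeletal muscle genes were above 0 in all 4 groups, with medians of 1.41 in AngII+ETH, 2.14 in AngII+BAI, 0.90 in AngII+GAS and 4.90 in AngII+VAL. Of the 4 kidney genes measured of 8, 3 were above 0 in AngII+VAL (median 1.46), and their mean log2 level was 2.67 to 3.01 in AngII+VAL, against 0.10 to 2.55 in AngII. Of 8 smooth muscle genes, 5 were below 0 in AngII+ETH (median −0.04), 8 each in AngII+BAI (−0.66) and AngII+GAS (−0.23) and 6 in AngII+VAL (−0.10). All 6 fibroblast genes were below 0 in all 4 groups, with medians of −0.59 to −0.18. Of 5 macrophage genes, 5 were below 0 in AngII+ETH (median −0.29) and AngII+GAS (−0.33), 4 in AngII+VAL (−0.07) and 0 in AngII+BAI (0.52). The part of these tissues in the results on the subunit genes was not tested.

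**Figure D4:**
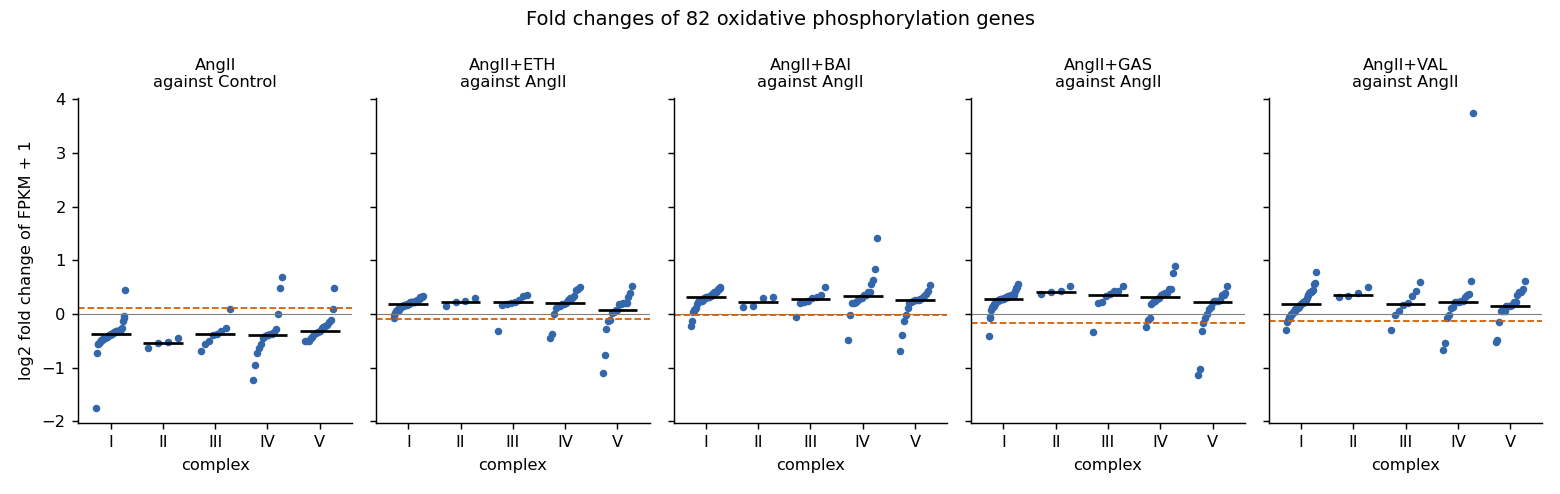
Log2 fold change of FPKM + 1 (y axis) of each of 82 genes by complex (x axis) in the 5 main comparisons. Points are genes, black lines the median of a complex and the dashed line the median of all 13223 genes tested. In AngII against Control 76 of 82 points are below 0, with a median of −0.37; against AngII, 11 are below 0 in AngII+ETH, 9 in AngII+BAI, 12 in AngII+GAS and 16 in AngII+VAL.

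The AngII+ETH libraries held the smallest of these median shifts. Complex V had a median of 0.08 and the other complexes 0.18 to 0.24. Atp5b was at 1163, 983, 1134, 495 and 913 FPKM in AngII+ETH 1 to 5, with libraries 1, 2 and 3 above all AngII libraries, 5 within their range and 4 below all of them (log2 fold change 0.21, SE 0.28, limma adjusted p = 0.99). The members with the smallest p were Cox6b2 (−0.44, SE 0.23), Atp5g3 (−0.77, SE 0.41) and Atp5g1 (−1.10, SE 0.60), each with a limma adjusted p of 0.99. Among them Atp5g1 was at 63.3, 2.58, 20.7, 30.7 and 19.8 FPKM in AngII+ETH, against 36.1, 110, 36.4, 18.2 and 49.3 FPKM in AngII. AngII+ETH 1 was below the median of the 30 libraries for 1 of the 82 members and AngII+ETH 4 for 78 of them. Without AngII+ETH 1 the count below 0 was 21 and the median 0.08, and without AngII+ETH 4 the median was 0.39. AngII+ETH 4 also had a low brown adipocyte level (4.27), and AngII+ETH 1 a high skeletal muscle level (6.19), and their part in the result was not tested.

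AngII+BAI was the most uneven group. AngII+BAI 1 held the highest of the 30 values for 56 of the 82 members and AngII+BAI 5 the lowest for 44. Averaged over all members, the log2 level of AngII+BAI 1 was 7.69 and that of AngII+BAI 5 was 5.88, with the other 3 libraries at 6.76 to 7.12. Cox5b was at 471, 218, 211, 244 and 112 FPKM in AngII+BAI 1 to 5, against 136 to 204 FPKM in AngII, so that its extremes lay on both sides of the AngII range (0.36, SE 0.29, limma adjusted p = 0.57). The members with the smallest p were Cox6b2 (−0.48, SE 0.23, limma adjusted p = 0.33), Atp5s (−0.69, SE 0.35, limma adjusted p = 0.36) and Atp5j2, a membrane subunit of ATP synthase (0.54, SE 0.28, limma adjusted p = 0.37). Atp5s was listed at 0, 0, 3.12, 1.93 and 0 FPKM in AngII+BAI 1 to 5, against 1.10, 2.14, 1.59, 2.60 and 1.17 FPKM in AngII. Without AngII+BAI 1 the count below 0 was 22 and the median 0.07, and without AngII+BAI 5 they were 4 and 0.54. AngII+BAI 1 also had the highest mean log2 level of 78 cytosolic ribosomal protein genes, 8.14, against 6.31 to 7.60 elsewhere, and in AngII+BAI 5 the smooth muscle level was low (7.39). Without AngII+BAI 3 and 5 together, the 2 libraries low in smooth muscle genes, the median was 0.67 with 6 of 82 below 0.

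In AngII+GAS the medians were 0.29 for complex I, 0.42 for complex II, 0.36 for complex III, 0.33 for complex IV and 0.22 for complex V. Sdhc was at 81.2, 53.1, 80.5, 75.8 and 46.1 FPKM in AngII+GAS 1 to 5, against 41.0 to 60.9 FPKM in AngII. Libraries 1, 3 and 4 were above all AngII libraries and 2 and 5 within their range (0.37, SE 0.21, limma adjusted p = 0.42). Atp5d had 0.52 (SE 0.29, limma adjusted p = 0.42). Atp5g3 had the smallest p of the members, with 24.9, 27.5, 28.7, 22.6 and 53.4 FPKM in AngII+GAS, against 42.6, 76.4, 50.4, 39.9 and 199 FPKM in AngII. AngII+GAS 5 alone reached the AngII range, and the log2 fold change was −1.13 (SE 0.41, limma adjusted p = 0.25). The same split of libraries showed in the brown adipocyte level, which was 6.00 to 6.65 in AngII+GAS 1, 3 and 4 and 4.95 and 5.34 in AngII+GAS 5 and 2. Without AngII+GAS 1 the count below 0 was 20 and the median 0.15, and without AngII+GAS 5 the median was 0.44.

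In AngII+VAL the medians were 0.36 for complex II and 0.16 to 0.23 for the others. Cox6b2 was at 2.08, 2.86, 1.87, 2.68 and 3.43 FPKM in AngII+VAL 1 to 5, against 4.32, 3.46, 5.62, 4.27 and 5.97 FPKM in AngII. The ranges did not overlap, which held for 2.42% of all genes in this direction and 0.537% in the other, and the log2 fold change was −0.67 (SE 0.23, limma adjusted p = 0.28). Cox6b2 had about 134 reads in the median library, spread over 5 transcripts. Ndufs8 was at 43.7, 17.8, 33.9, 32.8 and 16.7 FPKM in AngII+VAL, against 12.9, 21.1, 16.8, 18.1 and 9.77 FPKM in AngII, with 3 libraries above the AngII range (0.79, SE 0.40, limma adjusted p = 0.48). Without AngII+VAL 5, the library with the lowest mean of the members in that group, the count below 0 was 9 and the median 0.29.

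Cox6a2 (ENSMUSG00000030785, chromosome 7, 128205435 to 128206387, minus strand) was high in the libraries rich in muscle genes. It was at 150, 106, 21.3, 87.5 and 57.1 FPKM in AngII+VAL, against 2.22, 143, 4.42, 0.15 and 0.43 FPKM in AngII. AngII 2 alone reached the AngII+VAL range, and the log2 fold change was 3.75 (SE 1.35, limma adjusted p = 0.30). The skeletal muscle level was 5.23 to 7.06 in AngII+VAL and 0.72 to 2.51 in AngII, where Myh2 was at 0 in all 5 libraries. In Control, Cox6a2 was at 51.8 and 226 FPKM in libraries 1 and 2, where the skeletal muscle level was 5.80 and 7.16, and at 0.72 to 4.01 FPKM in the other 3. In AngII 2 the heart gene level was 6.01, against 0.11 to 0.67 in the other AngII libraries. The part of skeletal and heart muscle in the Cox6a2 difference was not tested, and since all AngII+VAL libraries were rich in skeletal muscle genes, treatment and muscle content cannot be told apart in that group.

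Ratios of alternative subunit genes were taken within each library, on FPKM + 1. For a gene as low as Cox4i2 a shift shared by both genes does not cancel on this scale, and where it is listed at 0 the ratio is set by Cox4i1 alone. The 6 ratios were compared in the 5 main comparisons by exact permutation of 5 against 5 libraries (two-sided), whose smallest possible p is 0.0079, adjusted over the 30 tests. A single ratio at that p would have an adjusted p of 0.238, and 5 ratios at it would be needed to reach 0.05, so that a lone difference could not pass. None passed. In AngII against Control, Cox4i2 over Cox4i1 had a log2 ratio of −6.60 ± 0.64 in AngII and −7.56 ± 0.48 in Control (difference 0.96, exact permutation p = 0.0397, adjusted p = 0.357). Cox4i2 was at 2.76, 2.96, 3.54, 1.64 and 3.72 FPKM in AngII, against 1.40, 2.32, 1.97, 2.25 and 0 FPKM in Control, with Control 5 listed at 0. A second transcript of the gene, ENSMUST00000109821, which was left out of the sums because it was not listed for AngII+BAI and AngII+GAS, was at 1.34 FPKM in Control 5, and the difference in the ratio was 0.75 without that library. Ndufa4l2, the paralog of Ndufa4 known to respond to low oxygen, had a log2 ratio to Ndufa4 of −3.48 ± 0.78 in AngII and −4.33 ± 0.15 in Control (difference 0.85, exact permutation p = 0.0476, adjusted p = 0.357). Its levels were 10.6, 12.3, 20.8, 9.10 and 20.2 FPKM in AngII, against 8.85 to 10.6 FPKM in Control, with AngII 3 and 5 standing above the rest. Ndufa4 is counted with complex I by its symbol, though its product is known as a subunit of complex IV.

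Among the muscle and brown fat forms, Cox7a1 over Cox7a2 was −0.53 ± 1.03 in AngII and 0.04 ± 0.44 in Control (exact permutation p = 0.317, adjusted p = 0.739), and Cox8b over Cox8a −1.26 ± 0.52 in AngII and −0.87 ± 0.18 in Control (exact permutation p = 0.103, adjusted p = 0.619). AngII 5, with the lowest brown adipocyte level, had the lowest ratio of both pairs in its group, −2.30 and −2.14. In AngII+VAL against AngII, Cox6a2 over Cox6a1 was −3.50 ± 1.10 in AngII+VAL and −6.89 ± 2.72 in AngII (difference 3.38, exact permutation p = 0.0476, adjusted p = 0.357). Atp5g1 over Atp5g3 was 0.50 ± 0.47 in AngII+VAL and −0.65 ± 0.94 in AngII (difference 1.15, exact permutation p = 0.0397, adjusted p = 0.357). AngII 5 had the lowest value of this ratio in AngII, −1.99, with Atp5g3 at 199 FPKM. Since all AngII+VAL libraries were rich in skeletal muscle genes, treatment and muscle content cannot be told apart in these ratios. In the other 3 compound groups no ratio had an exact permutation p under 0.05 against AngII.

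**Figure D5:**
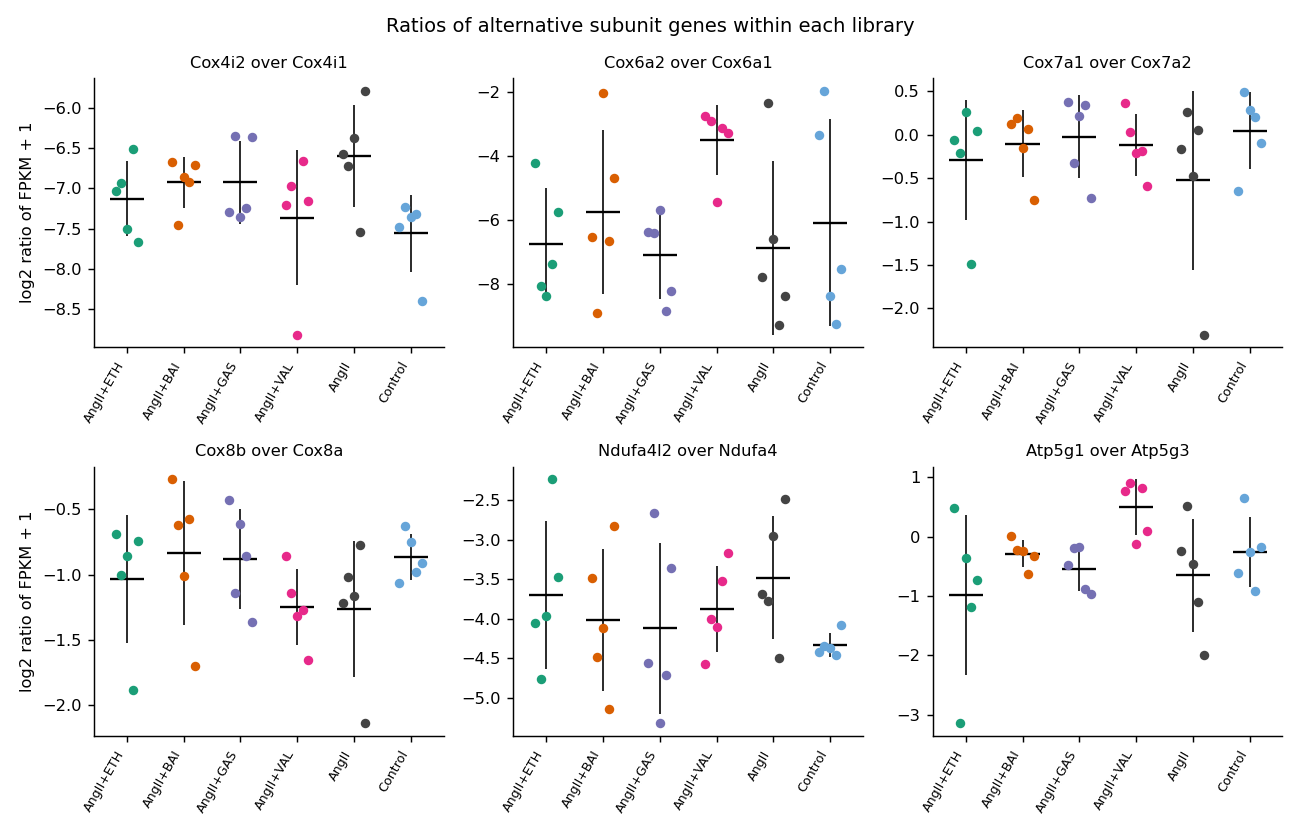
Log2 ratio of FPKM + 1 between alternative subunit genes (y axis, 1 panel per pair) in each of 30 aorta libraries by group (x axis). Points are libraries, horizontal lines group means and vertical lines 1 SD (n = 5). Cox6a2 over Cox6a1 is at −5.43 to −2.76 in AngII+VAL and −9.30 to −2.36 in AngII, and Ndufa4l2 over Ndufa4 at −4.50 to −2.49 in AngII and −4.46 to −4.07 in Control.

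Set against Control, the median member of each compound group lay below 0, and again none was called. The count below 0 was 75 of 82 in AngII+ETH (46.8% of all genes), 52 in AngII+BAI (40.7% of all genes), 67 in AngII+GAS (60.8% of all genes) and 73 in AngII+VAL (51.1% of all genes). The medians were −0.20 in AngII+ETH, −0.07 in AngII+BAI, −0.10 in AngII+GAS and −0.16 in AngII+VAL. In AngII+ETH, AngII+BAI and AngII+GAS single libraries decided the count. Members below 0 were 43 without AngII+ETH 4 (median −0.003), 16 without AngII+BAI 5 (median 0.18), 29 without AngII+GAS 2 (median 0.04) and 23 without AngII+GAS 5 (median 0.05). With array weights the count in AngII+GAS was 18 (median 0.10), and without AngII+BAI 3 and 5 together that in AngII+BAI was 13 (median 0.31), so that the direction in AngII+BAI and AngII+GAS turned. Over all genes the medians were 0.02 in AngII+ETH, 0.09 in AngII+BAI, −0.05 in AngII+GAS and −0.01 in AngII+VAL. These 4 comparisons share the Control libraries. Genes called among all 13223 made up 0% in AngII+ETH, 1.44% in AngII+BAI, 0.00756% in AngII+GAS and 0% in AngII+VAL. Ndufa12 had a p under 0.05 with a lower level in all 4, at log2 fold changes of −1.44 in AngII+ETH, −1.27 in AngII+BAI, −1.81 in AngII+GAS and −1.18 in AngII+VAL (SE 0.53 each, limma adjusted p 0.96, 0.19, 0.83 and 1), all against the same 5 Control libraries. At an unadjusted p under 0.05, the members with a lower level were 1 in AngII+ETH (1.91% of all genes), 2 in AngII+BAI (5.32%), 1 in AngII+GAS (2.62%) and 2 in AngII+VAL (2.22%), and 0 had a higher level (3.27% of all genes in AngII+ETH, 13.7% in AngII+BAI, 1.08% in AngII+GAS and 1.62% in AngII+VAL). In AngII+BAI the second was Atp5s, at 0, 0, 3.12, 1.93 and 0 FPKM in AngII+BAI, against 1.82, 2.44, 1.96, 2.01 and 2.10 FPKM in Control (−0.90, SE 0.35, limma adjusted p = 0.16). Ndufs1 followed there (−0.53, SE 0.28, limma adjusted p = 0.31). The next smallest p values belonged to Atp5j, a stalk subunit of ATP synthase (−0.50, SE 0.28), and Ndufa4l2 (0.39, SE 0.23) in AngII+ETH, to Cox4i2 (0.58, SE 0.37) and Atp5j (−0.45, SE 0.28) in AngII+GAS, and to Cox6a2 (2.52, SE 1.35) in AngII+VAL. Of the 21 core subunits, 19 were below 0 in AngII+ETH, 18 in AngII+BAI, 19 in AngII+GAS and 19 in AngII+VAL.

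Atp5k, a small membrane subunit of ATP synthase, was at 78.8, 64.1, 57.5, 47.0 and 41.8 FPKM in AngII+VAL, against 110, 112, 107, 90.5 and 95.4 FPKM in Control. The ranges did not overlap, which held for 1.15% of all genes in this direction and 0.461% in the other, and the log2 fold change was −0.85 (SE 0.32, limma adjusted p = 1). Against Control no member had such ranges in AngII+ETH (0.703% of all genes lower, 1.29% higher), AngII+BAI (0.991% lower, 2.23% higher) and AngII+GAS (0.817% lower, 0.265% higher).

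In a test of any difference among the 6 groups (limma's moderated F test), 0 of 82 members and 0% of all genes were called, while 15.8% of all genes and 1 member, Ndufa12, had an unadjusted p under 0.05 (limma adjusted p = 0.27).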

How the data were processed

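Per the labels' protocols, total RNA of 30 aorta libraries was depleted of ribosomal RNA and prepared with a NEB Next Ultra kit. The authors deposited FPKM per transcript, a unit inferred from the values since no file header names it. Assembled transcripts carry no gene names. The mm10 build and limma appear in the submitters' processing notes, while aligner, assembler, quantifier and strand setting are not given in the sources used here. Transcript lists differed between groups: of 49085 transcripts in the union, 39267 were in all 30 libraries and 27797 of those were annotated in GENCODE M21, which matched 33638 of 33677 Ensembl transcripts. They were summed to 14379 genes.

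Testing covered 13223 genes that reached 1 FPKM in 5 or more libraries, and all 82 measured members passed this filter. Log2(FPKM + 1), with a pseudocount of 1 that understates changes of low genes, was fitted with limma 3.58.1 (trend and robust, 24 residual and 2.58 prior degrees of freedom, R 4.3.3), with 1 mean per group over all libraries, two-sided tests and Benjamini-Hochberg adjustment over all genes at 0.05. The fit was checked on simulated data with the mean of each gene over all 30 libraries and its spread within groups. Noise was drawn independently for each gene, and changes were added to the AngII group. Of 13223 genes, 100 were given each size of change, and 59% of the changes of 1 and 85% of those of 2 on the log2 scale were found, beside 3 false calls. Smaller changes and spread shared between genes were not simulated. Python 3.11.15, pandas 2.3.3, numpy 2.4.6, scipy 1.17.1 and matplotlib 3.10.9 were used for the rest.

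Depth was recovered from low FPKM values, of which 98.7% to 99.6% per library lay within 0.1 read of a whole number of reads. A count of 3 reads in 1 kb corresponds to 0.0372 to 0.0431 FPKM, a limit that covers counting error only. No pair of libraries shared more than 0.0359% of identical values. The labels list 5 samples per group without saying that each is 1 animal, so p-values measure the spread between these samples, which may be partly technical.

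The members, gene lists and alternatives were chosen with earlier results of these data known. Genes named in a comparison are 21 core subunits (by range where not given singly), 6 pairs of alternative subunits and the 3 members with the smallest p; some genes that these rules name are not reported here. Cox6b2 in AngII against Control, the members singled out by level or spread, and single genes of the other lists were named after their values were seen. Alternatives were other pseudocounts, filters, scalings (quantile, trimmed mean of M values and nuclear sum), transcript sets, weights, fits of 2 groups, and libraries left out.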

Additional observations from a re-analysis of the deposited data

Results flagged for a closer look

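Within groups of 5, a library was compared with the other 4 of its group by its gap to the nearest value over the range (Dixon's critical value 0.71). Chance gives about 1 in 20 for independent, normal values. The items examined were not independent, since complex means hold the genes and the ratios share them, and some genes were picked for a small p. The count is therefore not to be read against that rate. Of 294 groups examined, 22 held such a library. AngII+ETH 4 was the lowest of its group in 11 of them: for the complex II mean (6.45 log2, others 7.37 to 7.73), and on the log2(FPKM + 1) scale for Atp5b (8.96), Atp5d (5.64), Cox7a1 (5.03), Cox8b (6.68), Ndufv1 (5.43), Sdhb (6.64), Sdhd (6.61) and Uqcrc1 (7.04). Its log2 ratios of Cox7a1 over Cox7a2 (−1.48) and Cox8b over Cox8a (−1.89) were also the lowest of its group.

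Other libraries stood apart for single genes. On the log2(FPKM + 1) scale these were Atp5c1 in AngII+BAI 5 (5.47, lowest), Ndufa4l2 in AngII+BAI 1 (4.70, highest), Atp5g3 in AngII+GAS 5 (5.77, highest), Ndufa12 in AngII+VAL 2 (5.25, highest), Cox6a1 in Control 1 (9.08, lowest), and Cox4i2, listed at 0, in AngII+VAL 3 (0) and Control 5 (0). Among the log2 ratios, Cox4i2 over Cox4i1 was lowest in AngII+VAL 3 (−8.82) and in Control 5 (−8.41), Cox6a2 over Cox6a1 in AngII+VAL 3 (−5.43), and Cox7a1 over Cox7a2 in AngII 5 (−2.30).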

How the results depend on the processing

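No member was called in any comparison under any alternative run. In AngII against Control, 74 to 78 of 82 members were below 0 with any 1 library left out and 75 to 78 under the other alternatives, with a median of −0.50 to −0.30. TMM factors moved the median of all genes from 0.11 to 0.01 and quantile normalization to −0.02, and the members' medians were then −0.50 and −0.41. In the other comparisons the count of members below 0 moved by over 1.5 times as follows. Against AngII it was 7 for AngII+GAS and 10 for AngII+VAL under quantile normalization, 6 for AngII+GAS and 8 for AngII+VAL with TMM factors, 15 for AngII+BAI with a common sum over nuclear genes, and 21 for AngII+ETH without the libraries rich in skeletal muscle genes. Against Control it was 18 for AngII+GAS with array weights and 13 for AngII+BAI without AngII+BAI 3 and 5. With each library left out in turn it ran from 9 to 21 in AngII+ETH, from 4 to 22 in AngII+BAI, from 8 to 20 in AngII+GAS and from 9 to 22 in AngII+VAL against AngII, and from 43 to 79 in AngII+ETH, from 16 to 77 in AngII+BAI, from 23 to 78 in AngII+GAS and from 56 to 76 in AngII+VAL against Control. Against Control these moves came without AngII+GAS 2 (29) or 5 (23), without AngII+BAI 5 (16) and without AngII+ETH 4 (43). Against AngII they came without AngII+VAL 5 (9), AngII+GAS 1 (20), AngII+BAI 1 (22) or 5 (4) and AngII+ETH 1 (21), and the cause was not tested. Comparisons with AngII+VAL and the test among 6 groups had no value without the libraries rich in muscle genes, since all 5 AngII+VAL libraries were among them. No paired analysis was possible because the labels give no replicate numbers: the library numbers 1 to 5 follow the order of the samples in each group and only name them. Depth was least for Cox4i2, Cox6b2 and Atp5s, with 126, 134 and 195 reads in the median library.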
